A study of Mus musculus with 14 samples.

Results

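The 10 genes described here are ones that β-catenin and its TCF/LEF partners are known to switch on, most of them brakes on Wnt signalling, and they were followed through 5 related lines of mouse ovarian tumour cells. The members were Axin2, Notum, Nkd1, Rnf43, Znrf3, Lgr5, Apcdd1, Tnfrsf19, Tcf7 and Lef1, chosen by gene name, and each of the 10 matched 1 row among the 35275 genes of the expression table. KMF cells are C57Bl6 mouse cells derived from ID8 cells, an ovarian surface epithelial line, that were passaged in mice. FAK KO cells are KT13, a single KMF clone in which Ptk2, the gene for focal adhesion kinase (FAK), was knocked out with CRISPR. FAK-WT cells are KT13 cells carrying GFP-tagged wildtype FAK, and FAK-R454 cells are KT13 cells carrying the same fusion with its kinase activity lost. β-catenin ΔGSK cells are KT13 cells, still without FAK, that carry active β-catenin, a form lacking the sites through which GSK3 marks the protein for breakdown. The constructs were delivered by lentivirus (FAK) or retrovirus (β-catenin), so their level was set by viral promoters, and cells were selected by drug and sorted for GFP. No vector-only line is among the 5. Over FAK KO cells, the effect of a construct therefore cannot be told apart from that of transduction, selection and sorting. All cells were grown without attachment as tumorspheres for 5 days before poly(A) RNA was sequenced, with 2 samples of FAK-R454 cells and 3 of each other line. Levels are given as FPKM, fragments scaled to gene length and to library size, so that genes of different length can be compared.

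When Wnt ligands are absent, cytoplasmic β-catenin is held by a complex of AXIN, APC, CK1 and GSK3 and sent for degradation, and when it escapes it enters the nucleus and binds TCF/LEF proteins at target genes. Several of those targets act back on the pathway. AXIN2 is a scaffold of the destruction complex, NOTUM is a secreted enzyme that removes the lipid from Wnt ligands, NKD1 binds Dishevelled, APCDD1 is a membrane inhibitor, and RNF43 and ZNRF3 are ubiquitin ligases that take Frizzled receptors off the surface. LGR5 is a receptor for R-spondins, which protect Frizzled from those ligases, TNFRSF19 (TROY) is a membrane receptor found on LGR5-positive stem cells, and TCF7 and LEF1 are themselves DNA-binding partners of β-catenin. Axin2 in particular is widely read as a meter of nuclear β-catenin activity. FAK is a cytoplasmic tyrosine kinase at cell adhesions, and the study asked how its loss and its kinase activity relate to tumour cell gene expression and whether active β-catenin can stand in for it.

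The 14 libraries held between 25390558 and 35289859 fragments counted on genes. In FAK KO cells Ptk2 was 18.97 ± 1.45 FPKM (SD, n = 3), against 24.3 ± 0.421 in KMF cells, 43.4 ± 1.76 in FAK-WT cells (SD, n = 3 each) and 62.4 ± 4.42 in FAK-R454 cells (SD, n = 2). These values count the whole gene and do not separate edited transcripts from construct. The β-catenin gene Ctnnb1 averaged 145 ± 4.63 FPKM without the ΔGSK construct and 214 ± 8.24 FPKM with it (SD, n = 3, FAK KO background). KMF cells, which carry no construct, were at 199.9 ± 6.12 FPKM (SD, n = 3), so a level near 200 is not by itself a mark of the construct. FAK-WT cells were at 128.6 ± 1.18 (SD, n = 3) and FAK-R454 cells at 136 ± 4.35 FPKM (SD, n = 2). Of 9 ovarian surface epithelial and mesothelial markers, 6 were above 1 FPKM in every line, among them Krt8, Krt18, Krt19 and Wt1, whereas Cdh1, Krt7 and Epcam were below 1 FPKM in every line. The 9 summed to between 1069 and 1250.4 FPKM in FAK KO cells, 1569.6 to 1809 in FAK-WT cells, 1257 to 1294 in FAK-R454 cells, 1174 to 1204 in KMF cells and 1218 to 1399.6 in β-catenin ΔGSK cells, and Upk3b went from a mean of 4.03 FPKM in the knockout to 31.6 with FAK-R454. Markers of other cells also moved between lines. The 3 immune markers in the table summed to between 2.79 and 3.15 FPKM in FAK KO cells, 6.60 to 12.3 in FAK-WT cells, 4.24 to 4.34 in FAK-R454 cells, 2.55 to 3.62 in KMF cells and 1.05 to 1.86 in β-catenin ΔGSK cells, with Cd3e at 0 in every line, Ptprc at 0 in all but β-catenin ΔGSK cells (0.00253 FPKM) and Cd68 making nearly all of the sum. The 6 fibroblast markers summed to between 90.0 and 127 FPKM in FAK KO cells and 30.8 and 45.1 in β-catenin ΔGSK cells. With wildtype FAK the sum was 123 to 145, with FAK-R454 122 to 132 and in KMF cells 41.8 to 49.8. Dcn made most of it in every line, and Thy1, Pdgfrb and Lum stayed below 1 FPKM. The sum hides changes in Col1a1 and Pdgfra. Col1a1 averaged 1.33 FPKM in the knockout, 9.12 with wildtype FAK, 10.1 with its kinase-inactive form and 0.194 with active β-catenin. Pdgfra averaged 3.03, 10.3, 8.87 and 0.815 FPKM in the same order. In KMF cells Col1a1 was at 2.46 and Pdgfra at 9.06 FPKM. The 4 endothelial markers, nearly all of it Tek, summed to between 6.55 and 7.42 FPKM in β-catenin ΔGSK cells, 17.1 and 19.2 in FAK KO cells and those with either FAK construct, and 29.6 and 29.95 in KMF cells. All samples were cultured lines, and those other than KMF came from a single clone. A marker here therefore does not show that a separate cell type was present. The part of these markers in the results below was not tested, and in bulk RNA fewer cells expressing a marker and less RNA per cell cannot be told apart.

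The start regions of 6 members were found in RefSeq's table for GRCm38.p6, as 12 promoters that run from 250 bases before a start to 50 bases after it. Those of Notum, Znrf3, Lgr5 and Apcdd1 were not used here. Each of the 12 was searched on both strands for CTTTGAT, the core letters of a TCF/LEF binding motif. This motif was present in 3.73% of all 32851 promoters in the table. Among the members' 12 promoters 1 held it, at an internal start of Tnfrsf19, where the gene's strand reads ATCAAAG, its reverse complement, with the leading base 202 bases before the start. The promoters of 3 members are printed 5′ to 3′ on the gene's strand, with the motif in capitals: Axin2, the member with the highest level in β-catenin ΔGSK cells (chr11:108920099-108920398, plus strand), Lef1, the member that stayed near 0 there (the most upstream of 4 starts, chr3:131110047-131110346, plus strand), and the internal start of Tnfrsf19 (chr14:61037938-61038237, minus strand).
Axin2: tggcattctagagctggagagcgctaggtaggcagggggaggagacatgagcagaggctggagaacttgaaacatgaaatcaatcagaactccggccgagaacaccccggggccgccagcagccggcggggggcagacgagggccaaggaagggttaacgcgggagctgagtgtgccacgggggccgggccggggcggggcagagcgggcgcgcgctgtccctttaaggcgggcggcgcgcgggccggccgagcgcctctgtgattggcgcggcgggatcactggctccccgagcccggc
Lef1: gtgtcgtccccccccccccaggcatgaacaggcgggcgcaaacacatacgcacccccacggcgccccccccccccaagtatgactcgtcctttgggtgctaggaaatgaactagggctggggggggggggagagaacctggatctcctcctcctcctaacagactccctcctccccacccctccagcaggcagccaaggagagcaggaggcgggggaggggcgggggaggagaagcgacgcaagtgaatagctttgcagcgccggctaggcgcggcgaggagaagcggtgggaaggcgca
Tnfrsf19: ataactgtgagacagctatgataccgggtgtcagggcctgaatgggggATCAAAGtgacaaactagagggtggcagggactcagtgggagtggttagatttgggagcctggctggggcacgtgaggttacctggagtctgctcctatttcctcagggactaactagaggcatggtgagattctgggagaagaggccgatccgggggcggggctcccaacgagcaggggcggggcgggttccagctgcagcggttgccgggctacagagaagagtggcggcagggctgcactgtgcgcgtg
The match is a description of these letters and not a measured binding site, and its absence from a window says only that these letters are not there.

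Active β-catenin raised 9 of the 10 members. The comparison of β-catenin ΔGSK with FAK KO cells asks what differs once the clone carries the stabilised protein, with FAK absent in both lines. Each comparison of 2 lines used limma on log2(FPKM + 0.1) over all genes with a mean above 1 FPKM in at least 1 of them, and a gene was called at an adjusted p (Benjamini-Hochberg) under 0.05 and a difference of at least 2-fold. Of the 10 members, 9 passed the FPKM filter and all 9 were called higher with active β-catenin, where 5.13% of the 11915 genes tested were called higher. The filter was passed by Nkd1, Tnfrsf19, Lgr5, Axin2 and Notum only through their level in β-catenin ΔGSK cells, so neither this count nor the median below is independent of the filter. The median log2 fold change of the 9 was 4.04, beside -0.09 over all genes tested.

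Axin2 (chromosome 11, 108920349 to 108950783, GRCm38) was 0.819, 0.810 and 0.839 FPKM in the 3 FAK KO samples and 102, 112 and 114 FPKM in the 3 β-catenin ΔGSK samples. The groups lay 133-fold apart in mean level, and the log2 fold change was 6.89 ± 0.08 SE (limma adjusted p = 1.01e-10). In β-catenin ΔGSK cells Axin2 was the highest of the 10 members per length, while in FAK KO cells 4 members (Apcdd1, Tcf7, Znrf3 and Rnf43) lay above it and Notum was at its level. An antisense gene, Gm11670, overlaps Axin2 and averaged 3.84 FPKM in β-catenin ΔGSK cells and at most 0.138 in the other lines. Whether counting used strand is not given in the sources used here, so fragments of overlapping genes cannot be told apart.

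Tnfrsf19 and Nkd1 were close to absent until β-catenin was activated. Tnfrsf19 (chromosome 14, 60963834 to 61046855) had 0 fragments in all 3 KMF samples and between 0 and 4 in the FAK KO, FAK-WT and FAK-R454 samples. In the β-catenin ΔGSK samples it had 1807, 1328 and 1689 fragments, which is 13.7, 11.3 and 12.4 FPKM. Over KMF cells it was at least 1450-fold higher, the lower limit of the 95% exact binomial interval of the fragment ratio, which covers counting error only. Over FAK KO cells its log2 fold change was 6.77 ± 0.17 SE (limma adjusted p = 1.88e-08). The pseudocount holds that value down. Scaled to library depth, the fragment counts of 4824 and 6 give a ratio of 813 (95% exact binomial interval 373 to 2218).

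Nkd1 (chromosome 8, 88521344 to 88594887) had 0, 2 and 3 fragments in FAK KO cells and 1140, 1168 and 1230 in β-catenin ΔGSK cells, which is 9.31, 10.7 and 9.69 FPKM. Its log2 fold change was 6.45 ± 0.17 SE (limma adjusted p = 2.00e-08). Here too the pseudocount holds the value down. Scaled to library depth, 3538 fragments against 5 give a ratio of 716 (95% exact binomial interval 306 to 2206). Lgr5 (chromosome 10, 115450311 to 115587780) went from 0.104, 0.0800 and 0.0671 FPKM to 7.58, 7.07 and 7.66 FPKM. That is 88.8-fold by mean level, and the log2 fold change was 5.36 ± 0.15 SE (limma adjusted p = 3.65e-08). For all 3 genes the lowest β-catenin ΔGSK sample was far above the highest sample of any other line.

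**Figure D1:**
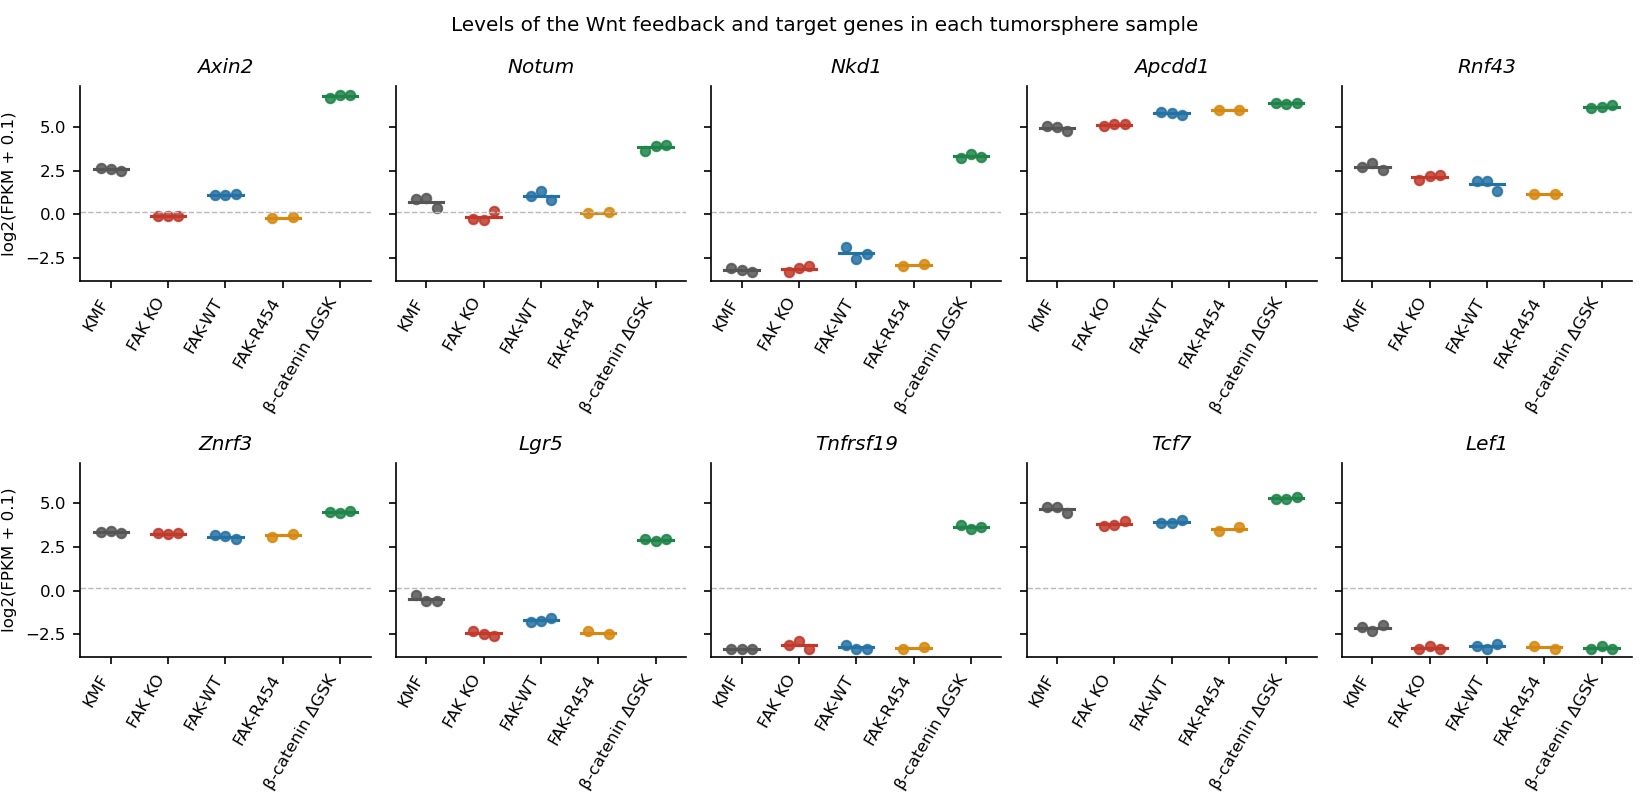
Level of each member in every sample on the log2(FPKM + 0.1) scale, by line, with points for samples, a horizontal bar for the line's mean of these log values and a dashed line at 1 FPKM. Of the 10 genes, 9 are highest in β-catenin ΔGSK cells, with Axin2 at 102 to 114 FPKM there, and Lef1 is above 3 fragments in KMF samples only.

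Among the secreted and receptor-level brakes, Notum and Rnf43 rose more than 10-fold. Notum (chromosome 11, 120653788 to 120661175) was 0.736, 0.676 and 1.05 FPKM in FAK KO cells and 12.3, 14.7 and 15.6 FPKM in β-catenin ΔGSK cells, a log2 fold change of 3.97 ± 0.16 SE (limma adjusted p = 2.75e-07). Rnf43 (chromosome 11, 87662722 to 87735539) was 3.74, 4.51 and 4.68 FPKM in FAK KO cells and 68.8, 71.6 and 75.7 FPKM in β-catenin ΔGSK cells, a log2 fold change of 4.04 ± 0.09 SE (limma adjusted p = 1.24e-08). Its fellow ligase Znrf3 (chromosome 11, 5276324 to 5444847) moved far less, from 9.67, 9.31 and 9.76 FPKM to 22.8, 21.8 and 23.2 FPKM, a log2 fold change of 1.23 ± 0.07 SE (limma adjusted p = 1.27e-06). The order of the ligases turned over with it, since Znrf3 was above Rnf43 in every FAK KO sample and below it in every β-catenin ΔGSK sample.

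Apcdd1 and Tcf7 were already high and rose least beside Znrf3. Apcdd1 (chromosome 18, 62922327 to 62953195) went from 32.7, 36.1 and 35.5 FPKM in FAK KO cells to 84.1, 80.9 and 84.4 FPKM, a log2 fold change of 1.26 ± 0.06 SE (limma adjusted p = 9.18e-07). The median of the 297 chromosome 18 genes tested in this comparison was -0.38, against which Apcdd1 rose. Tcf7 (chromosome 11, 52252371 to 52283014) went from 12.8, 13.5 and 15.9 FPKM to 38.4, 38.4 and 41.2 FPKM, a log2 fold change of 1.48 ± 0.09 SE (limma adjusted p = 2.39e-06). No sample of the 2 lines overlapped for any of these 9 members, in a comparison where 64.2% of all genes tested did not overlap.

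Lef1 (chromosome 3, 131110471 to 131224356) was the exception. In β-catenin ΔGSK cells it had 0, 1 and 0 fragments, as low as in FAK KO cells with 0, 1 and 0. A library's 3 fragments would be between 0.0233 and 0.0323 FPKM for this gene, so a level below that was not detectable at this depth. Tcf7, the other member that encodes a DNA-binding partner, was at 39.3 ± 1.61 FPKM (SD, n = 3) in a line where Lef1 was under the limit of detection.

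Set against FAK-WT cells instead, the same 9 members were tested and 8 were called higher with active β-catenin, where 4.48% of genes were called higher and 24.4% were higher at any fold. Nkd1, Tnfrsf19 and Lgr5 were below 1 FPKM in FAK-WT cells and passed the filter only through β-catenin ΔGSK cells, so the count is in part set by the filter. The exception was Apcdd1, with a log2 fold change of 0.59 ± 0.07 SE (limma adjusted p = 2.15e-04), 1.51-fold by mean level. Axin2 was 53.3-fold higher than in FAK-WT cells. A comparison with KMF cells was added after the levels had been seen, and there too 8 of the 9 tested members were called higher (background 5.96%, and 25.1% at any fold), with Nkd1, Tnfrsf19 and Lgr5 again tested only because of their level in β-catenin ΔGSK cells. Tcf7 stayed under 2-fold in it, with a log2 fold change of 0.62 ± 0.09 SE (limma adjusted p = 5.75e-04), while Axin2 stood 18.6-fold, Lgr5 12.1-fold, Rnf43 11.1-fold and Notum 9.08-fold above KMF. All 9 tested members were higher than in the parental cells, in which FAK was intact.

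Re-expression of FAK moved fewer members and by much less. Setting FAK-WT beside FAK KO cells asks what differs once the knockout clone carries the wildtype protein, with transduction, selection and sorting part of the difference. It shares its FAK KO samples with the other comparisons over FAK KO. In this contrast 6 members passed the filter, 2 were called higher (Axin2 and Notum) where 2.91% of the 11841 genes tested were, and 3 were higher at any fold (with Apcdd1) where 15.6% were. The samples did not overlap for 5 of the 6, beside 56.1% of all genes. Axin2 and Notum passed the filter only through their FAK-WT level. Axin2 was 2.02, 2.05 and 2.09 FPKM in the FAK-WT samples, all above the FAK KO samples at 0.810 to 0.839. Its log2 fold change was 1.22 ± 0.14 SE (limma adjusted p = 4.37e-04), 2.497-fold by mean level. Notum was 1.96, 2.37 and 1.63 FPKM in FAK-WT cells, above the highest FAK KO sample at 1.05, with a log2 fold change of 1.19 ± 0.21 SE (limma adjusted p = 0.00359). With a pseudocount of 1 neither change reached 2-fold. Apcdd1 was 58.9, 56.0 and 50.6 FPKM, and its log2 fold change over FAK KO cells was 0.66 ± 0.08 SE (limma adjusted p = 4.80e-04).

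The other 3 tested members did not pass. Tcf7 overlapped between the lines, with 14.3, 14.4 and 16.8 FPKM in FAK-WT cells and a log2 fold change of 0.11 (95% interval -0.12 to 0.34). Rnf43 pointed the other way, at 3.63, 3.57 and 2.44 FPKM and a log2 fold change of -0.43 (95% interval -0.80 to -0.06, adjusted p = 0.0647 from limma). Its call depended on the fit, since the adjusted p was 0.0234 when all 5 lines were fitted together and 0.0481 with limma-voom on recovered fragments. Znrf3 had a log2 fold change of -0.18 (95% interval -0.37 to 0.00), and it too passed when all 5 lines were fitted together (limma adjusted p = 0.0464).

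Lgr5 and Nkd1 were too low for the filter in this comparison but were counted in every FAK-WT sample. Lgr5 had 27, 25 and 36 fragments in FAK-WT cells and 15, 10 and 9 in FAK KO cells, 0.207 ± 0.0276 and 0.0837 ± 0.0187 FPKM (SD, n = 3 each). Nkd1 had 22, 8 and 14 fragments in FAK-WT cells, above the 0, 2 and 3 in FAK KO cells. Without the filter, limma gave an adjusted p of 0.0312 for Lgr5 and 0.0265 for Nkd1, and 8.31% of the genes tested that way were higher. By limma-voom on genes with at least 10 recovered fragments the adjusted p was 0.0130 and 0.0129. With 1 sample left out the log2 fold changes stayed between 0.67 and 0.82 for Lgr5, beside 0.74 with all samples, and between 0.71 and 1.05 for Nkd1, beside 0.89. The adjusted p of Lgr5 was then at least 0.0552 for each of the 6 samples, and that of Nkd1 at least 0.0533 for all but FAK-WT sample 2, without which it still passed. The size of both depends on the pseudocount and method: over all alternatives the log2 fold change ran from 0.16 to 1.28 for Lgr5 and from 0.14 to 3.09 for Nkd1, and Lgr5 did not pass with a pseudocount of 0.01 (1.23, limma adjusted p = 0.0777). Tnfrsf19 and Lef1 had at most 2 fragments in a FAK-WT sample.

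**Figure D2:**
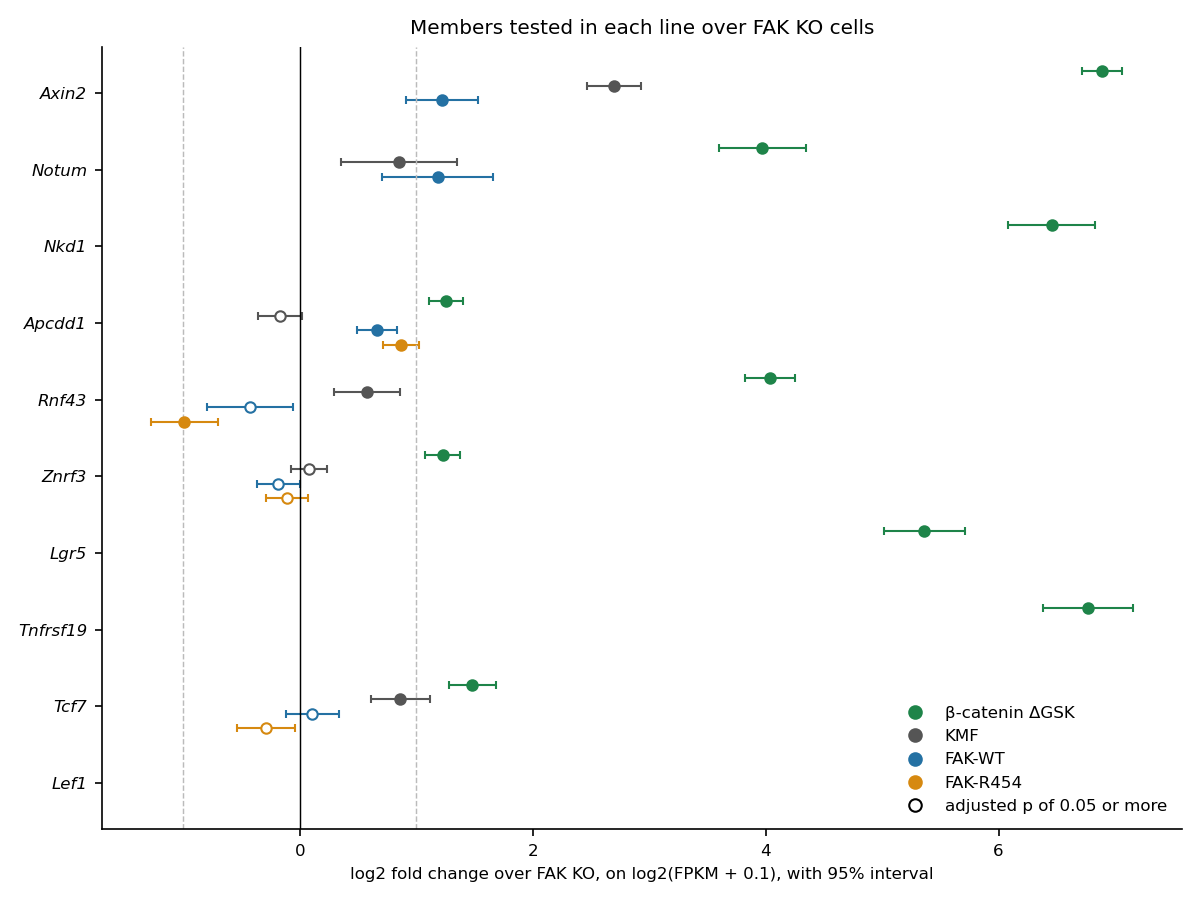
Log2 fold change over FAK KO cells, on log2(FPKM + 0.1), of each member that passed the FPKM filter, with its 95% interval. Filled points have an adjusted p under 0.05, dashed lines mark a 2-fold difference, and a missing point means the member was below 1 FPKM on average in both lines. The β-catenin ΔGSK points run from 1.23 (Znrf3) to 6.89 (Axin2), and the largest FAK-WT value is 1.22 (Axin2).

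Kinase-inactive FAK left Axin2 at the knockout level. Axin2 was 0.761 and 0.786 FPKM in the FAK-R454 samples, both below the lowest FAK KO sample at 0.810, with a log2 fold change of -0.08 ± 0.18 SE (limma adjusted p = 0.821, without the filter, which it did not pass). Lgr5 was 0.0977 and 0.0790 FPKM, within the range of the FAK KO samples, and Nkd1 had 3 and 5 fragments. Notum was 0.944 and 0.971 FPKM, also inside the FAK KO range. In this contrast 4 members passed the filter, and limma called none of them at 2-fold, with 3 at an unadjusted p under 0.05 and 1 called by limma-voom (background 1.93% higher and 0.812% lower). The samples did not overlap for any of the 4, beside 55.1% of all genes. At any fold Apcdd1 was higher, where 9.78% of genes were, and Rnf43 lower, where 9.89% were. Apcdd1 was 63.3 and 63.7 FPKM, with a log2 fold change of 0.87 ± 0.07 SE (limma adjusted p = 1.82e-04), and Rnf43 was 2.13 and 2.09 FPKM, with a log2 fold change of -0.99 ± 0.12 SE (limma adjusted p = 0.00168). Rnf43 stood at the 2-fold threshold and was called lower without FAK KO sample 1 or without FAK-R454 sample 1. Tcf7 was 10.6 and 12.4 FPKM, below every FAK KO sample (adjusted p = 0.0977 from limma). It passed without FAK KO sample 1, at a log2 fold change of -0.35 (limma adjusted p = 0.0480).

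The direct comparison of FAK-WT with FAK-R454 cells asks what differs with kinase activity when both constructs are present. Axin2 and Notum were below 1 FPKM in FAK-R454 cells and passed the filter only through FAK-WT cells, so the counts that follow are not independent of it. Of 6 members tested, Axin2 was called higher in FAK-WT cells, where 0.696% of genes were, with a log2 fold change of 1.30 ± 0.12 SE (limma adjusted p = 0.00584). The samples did not overlap for 5 of the 6, beside 48.5% of all genes. Notum was also higher, by 0.96 ± 0.18 SE (limma adjusted p = 0.0337), where 3.38% of genes were higher at any fold. With 1 of the 2 FAK-R454 samples left out the values barely moved (1.28 and 1.32 for Axin2, 0.95 and 0.98 for Notum) but no adjusted p was under 0.05 (0.0967 and 0.0946 for Axin2, 0.225 and 0.240 for Notum). In those fits the lone FAK-R454 sample is assumed to vary like FAK-WT cells, which alone give the spread, and of all genes tested 4 were called higher in each, against 82 with both samples. Notum also lost its call without FAK-WT sample 1 (0.0903), without FAK-WT sample 2 (0.108) and without the FPKM filter (0.0685), and without FAK-WT sample 3 it reached 2-fold, so that 2 members were called. Tcf7 and Rnf43 were higher in all 3 FAK-WT samples than in both FAK-R454 samples, with log2 fold changes of 0.40 (95% interval 0.15 to 0.65, adjusted p = 0.0708) and 0.56 (0.11 to 1.01, adjusted p = 0.121). Without FAK-WT sample 3, both passed in limma, at adjusted p = 0.0155 and 0.00147, and both passed when all 5 lines were fitted together, at 0.0497 and 0.0390. Apcdd1 had a difference of -0.20 (95% interval -0.38 to -0.03, adjusted p = 0.140 from limma). It passed without FAK-WT sample 3, at -0.14 (adjusted p = 0.0314), and the direction turned to 0.022 when each chromosome was centred.

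**Figure D3:**
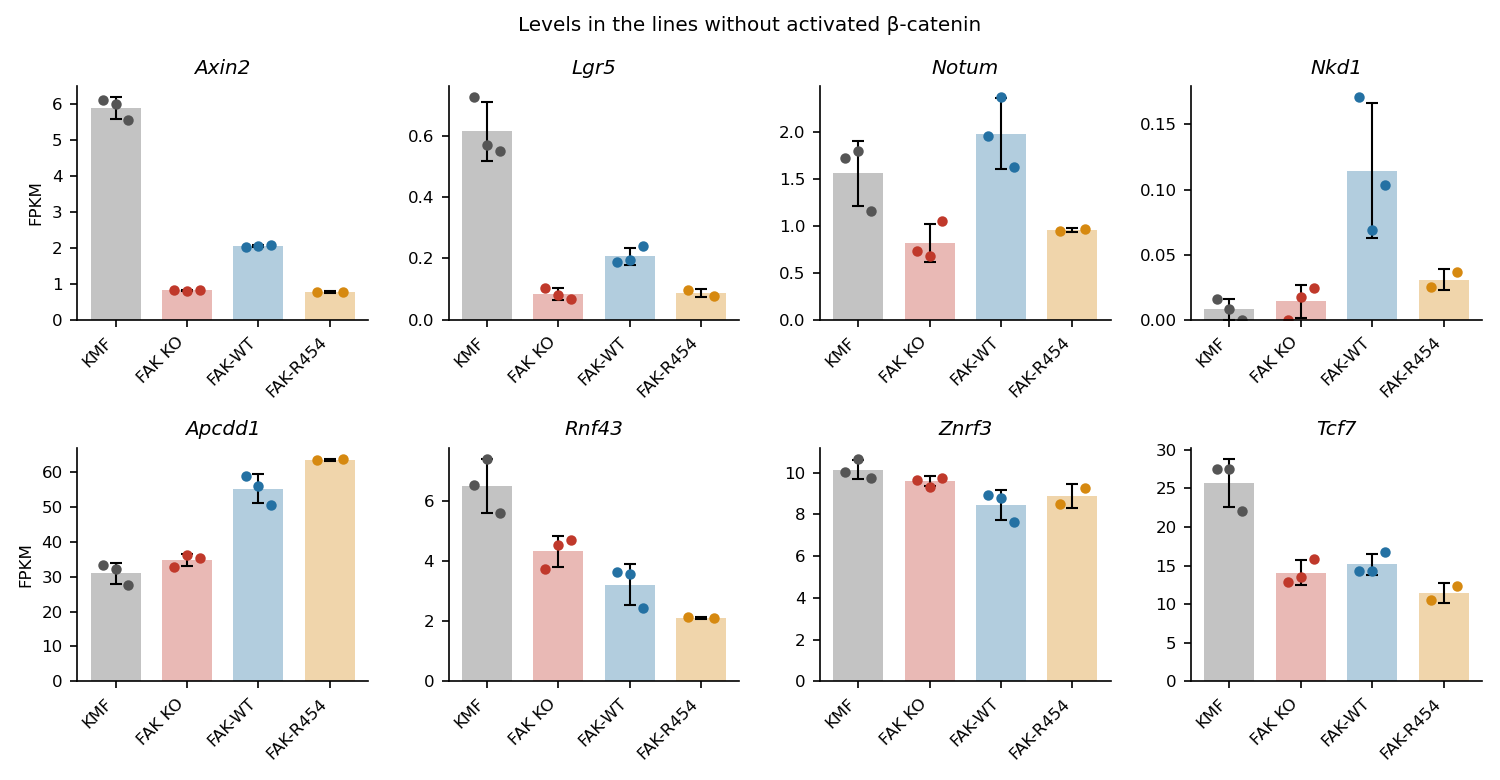
FPKM of 8 members in the 4 lines without activated β-catenin, on linear axes that start at 0, with points for samples, bars for means and error lines for the SD (n = 3, and n = 2 for FAK-R454). Axin2 steps from 5.88 FPKM in KMF to 2.05 in FAK-WT and about 0.8 in the others, while Apcdd1 is lowest in KMF and FAK KO and Rnf43 is lowest in FAK-R454.

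The parental KMF cells stood above the FAK KO clone for most members, although a knockout of FAK and the other properties of a single clone cannot be told apart. Of 6 members tested, Axin2 was called higher in KMF cells (background 3.97%) and 4 were higher at any fold (background 23.1%). Axin2 and Notum, below 1 FPKM in FAK KO cells, were tested only because of their KMF level, so these counts are in part set by the filter. The samples of 5 of the 6 did not overlap, beside 60.8% of all genes. Axin2 was 6.11, 6.003 and 5.54 FPKM in KMF cells, which was 2.70 ± 0.10 SE above FAK KO cells on the log2 scale (limma adjusted p = 4.87e-07). Tcf7, at 27.5, 27.6 and 22.1 FPKM, was higher by 0.86 ± 0.11 SE (limma adjusted p = 3.17e-04), Notum, at 1.73, 1.797 and 1.17 FPKM, by 0.85 ± 0.22 SE (limma adjusted p = 0.0116), and Rnf43, at 6.52, 7.38 and 5.58 FPKM, by 0.58 ± 0.12 SE (limma adjusted p = 0.00508). Without KMF sample 3 or FAK KO sample 3, Notum also reached 2-fold and 2 members were called. Without the filter Lgr5 was higher too, with 101, 76 and 93 fragments against 15, 10 and 9 and a log2 fold change of 1.96 (adjusted p = 5.40e-04 from limma, where 13% of genes were higher). Znrf3 differed by 0.08 (95% interval -0.07 to 0.24) and Apcdd1 by -0.17 (95% interval -0.36 to 0.02). The direction of Apcdd1 turned to 0.28 (adjusted p = 0.0873) when each chromosome was centred, the chromosome 18 median being -0.38.

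KMF cells were also the line with Lef1. Its 14, 10 and 20 fragments there, 0.128 ± 0.0287 FPKM (SD, n = 3), compared with between 0 and 2 in each of the other 11 samples. Scaled to library depth, the total of 44 fragments against 1 in FAK KO cells is a ratio of 40.1. Its 95% exact binomial interval is 6.84 to 1621. By limma without the filter the adjusted p was 0.00166 over FAK KO cells. Nkd1 went the other way, with 2, 1 and 0 fragments in KMF cells against 22, 8 and 14 in FAK-WT cells (limma adjusted p = 0.0132 without the filter).

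FAK-WT cells did not regain the parental level of Axin2. In a comparison added after the levels had been seen, Axin2 was higher in KMF than in FAK-WT cells by 1.47 ± 0.08 SE on the log2 scale (limma adjusted p = 2.85e-05), 2.86-fold by mean level, and Rnf43 by 1.00 ± 0.17 SE (limma adjusted p = 0.00314), and these were the 2 of 6 tested members called higher (background 2.11%, and 23.5% at any fold). Rnf43 stood at the 2-fold threshold, and without KMF sample 1, KMF sample 2 or FAK-WT sample 3 Axin2 alone was called. Tcf7 was higher by 0.76 (adjusted p = 0.00143) and Znrf3 by 0.26 (adjusted p = 0.0296, lost without KMF sample 1, KMF sample 2 or FAK-WT sample 2). Lgr5, tested without the filter, was higher by 1.21 (adjusted p = 0.00551, where 12.5% of genes were higher). Notum did not pass, with a difference of -0.33 (95% interval -0.80 to 0.14) and overlapping samples. Apcdd1 was lower in KMF than in FAK-WT cells by -0.83 ± 0.09 SE (limma adjusted p = 4.45e-04), where 18.2% of genes were lower at any fold.

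The members had different orders of level across the lines. For Axin2 the order was β-catenin ΔGSK, KMF, FAK-WT, FAK KO and FAK-R454, and of the neighbours in it FAK KO and FAK-R454 did not differ by the tests above. Lgr5 had the same order with the last pair exchanged and overlapping, at far lower levels, and FAK-WT did not pass over FAK-R454 for this gene (a log2 fold change of 0.70 with adjusted p = 0.144 from limma without the filter, and 0.0752 by limma-voom). For Notum it was β-catenin ΔGSK, FAK-WT, KMF, FAK-R454 and FAK KO, with FAK-WT and KMF overlapping and FAK-R454 inside the FAK KO range. Tcf7 ran β-catenin ΔGSK, KMF, FAK-WT, FAK KO and FAK-R454. With all samples, neither FAK-WT and FAK KO nor FAK KO and FAK-R454 differed by the test. Rnf43 ran β-catenin ΔGSK, KMF, FAK KO, FAK-WT and FAK-R454, where neither FAK KO and FAK-WT nor FAK-WT and FAK-R454 differed by the test. Apcdd1 ran β-catenin ΔGSK, FAK-R454, FAK-WT, FAK KO and KMF, with neither the last pair nor the FAK constructs differing by the test. For this gene every line with a construct thus lay above those without, and construct and transduction cannot be told apart. For Znrf3 no line other than β-catenin ΔGSK differed from FAK KO cells in the fits of 2 lines at a time. Tnfrsf19 totalled at most 6 fragments in each line other than β-catenin ΔGSK, and Nkd1 at most 8 outside β-catenin ΔGSK and FAK-WT cells.

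The genes with patterns most like that of Axin2 depended on whether β-catenin ΔGSK samples were included. Over the 14 samples and 12256 genes with a mean above 1 FPKM in at least 1 line, the Pearson correlation of log2(FPKM + 0.1) with Axin2 was highest for Lgr5 (0.997), followed by Zdhhc2, Esam, Arhgap29 and Tmtc4 (0.982 to 0.978). The other members ranked from 38 (Rnf43, 0.959) to 2299 (Apcdd1, 0.541). These values rest largely on the β-catenin ΔGSK samples, and samples of a line are alike for all genes. Lgr5 entered this ranking only through its level in those samples, being at most 0.614 FPKM on average in any other line, and without them it was below the filter and was not ranked. Without those samples, over 11 samples and 12087 genes, the 5 most like Axin2 were Lmo7, Ripk3, Pced1b, Bcor and Gstt1 (0.998 to 0.986). Among members in that ranking Tcf7 was at 0.916, Rnf43 at 0.683, Notum at 0.657, Znrf3 at 0.365 and Apcdd1 at -0.46. Unlike Axin2, all 5 were higher on average in KMF than in β-catenin ΔGSK cells, from Gstt1 at 5.49 against 0.317 FPKM to Lmo7 at 24.3 against 23.4 FPKM.

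In other parts of the Wnt pathway genes went both ways in β-catenin ΔGSK cells. Of 16 tested genes of the destruction complex and its cytoplasmic transducers, 4 were higher and 1 lower at any fold than in FAK KO cells, where 23.7% and 34.4% of all genes were, and none of the 5 reached 2-fold. Ctnnb1 led them with a log2 fold change of 0.57 (adjusted p = 6.84e-05 from limma), a value that includes the construct where its fragments map to the gene. KMF cells, without a construct, were higher than FAK KO cells for Ctnnb1 by 0.47 (adjusted p = 3.50e-04 from limma). In β-catenin ΔGSK cells the scaffold Amer1 was higher by 0.34 and Csnk1a1, which primes β-catenin for GSK3, lower by -0.41. Of 14 nuclear partners 3 were higher and 3 lower. Tle2 and Tcf7l1 were lower by -1.68 and -1.02, the first a co-repressor and the second a TCF known mainly for repression, while another co-repressor, Tle1, was higher by 1.15. Of 9 tested receptor-level partners 3 were higher and 2 lower, led by the Frizzled receptor Fzd4 at 2.21 (adjusted p = 2.07e-06). Of 12 tested genes in a list of other Wnt targets 6 were higher and 4 lower, and 1 was called higher at 2-fold, where 5.13% of all genes were. Id2, an inhibitor of basic helix-loop-helix factors, was that gene with 2.45 (adjusted p = 1.61e-07), followed by Cd44, a hyaluronan receptor, at 0.97, the survivin gene Birc5 at 0.92 and Myc at 0.77. The medians of these 4 lists lay between 0.02 and 0.22, beside -0.09 for all genes.

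When FAK-WT was set against FAK KO cells, the list of other Wnt targets had 10 genes higher and 1 lower of 12 tested, with a median of 0.44, and none at 2-fold. The 12 were chosen with earlier results of these data known, and 15.6% of all genes were higher. Bmp4 and Cd44 were each higher by 0.58 and Ephb3 by 0.56, while Id2 was lower by -0.66. Only Cd44 went the same way with active β-catenin, at a mean of 48.8 FPKM against 24.9 in FAK KO cells. Bmp4 was lower there (4.24 against 7.06 FPKM), as was Ephb3 (14.6 against 17.5), and Id2 was higher (40.7 against 7.35). In FAK-R454 cells 5 of 13 tested genes in that list were higher, where 9.78% of all genes were, led by Dkk1, a secreted inhibitor of Wnt co-receptors, at 2.45 (adjusted p = 0.00391, 1.13 against 0.13 FPKM, so tested only through its FAK-R454 level), and Bmp4 and Ephb3 were again among them at 0.66 and 0.58. Of the receptor-level partners, Fzd9 was higher over FAK KO cells by 1.41 with wildtype FAK, 1.47 with FAK-R454 and 1.97 in KMF cells, and it passed the filter in each only through that line, being 0.894 FPKM in FAK KO cells. The destruction complex list had 2 genes higher and 7 lower in FAK-WT cells, where 25.2% of all genes were lower at any fold, with Apc the lowest at -0.49 (adjusted p = 0.00199).

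**Figure D4:**
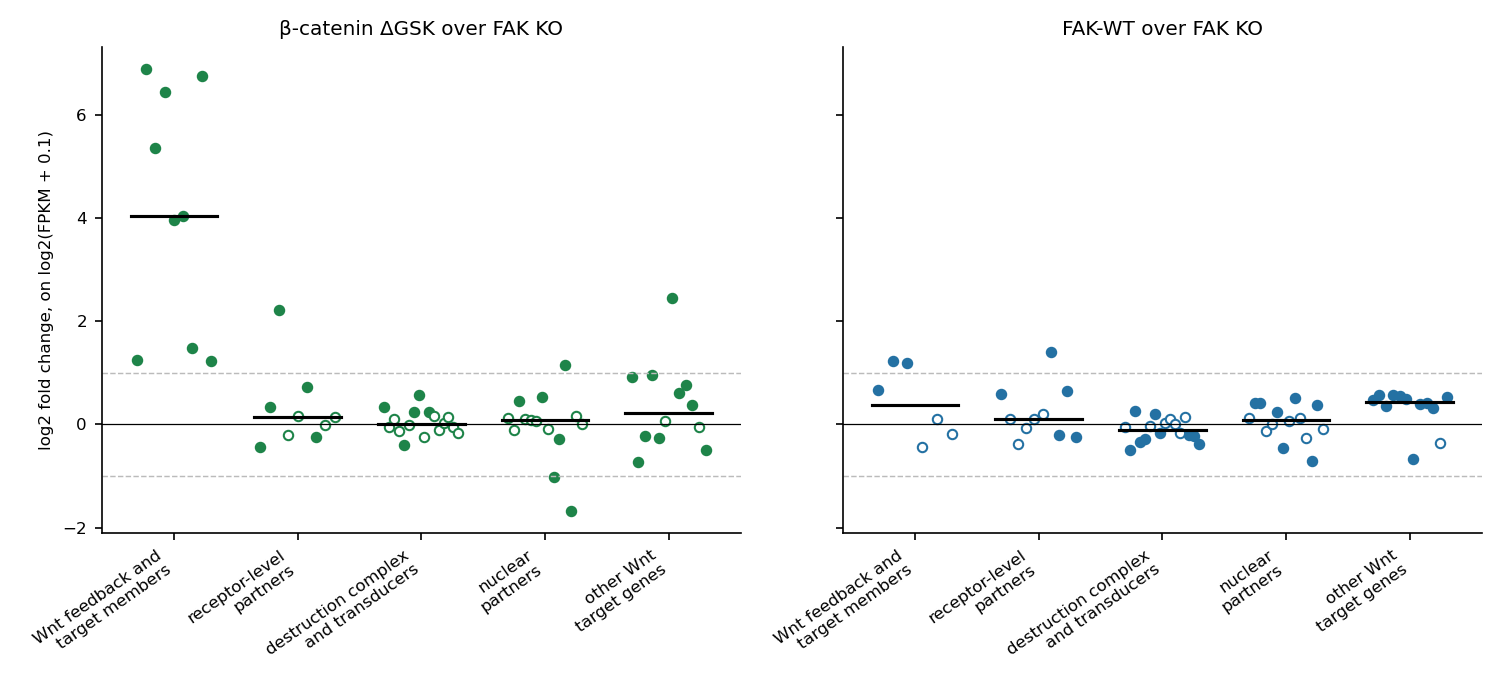
Log2 fold change on log2(FPKM + 0.1) of each tested gene in the members and 4 other Wnt lists, in β-catenin ΔGSK (left) and FAK-WT cells (right) over FAK KO cells. Filled points have an adjusted p under 0.05, short bars are the list medians and dashed lines mark 2-fold. On the left the members run from 1.23 to 6.89, and the other lists include Id2 at 2.45, Fzd4 at 2.21 and Tle2 at -1.68. Of the members, 5 of 9 on the left and 2 of 6 on the right were tested only because of their level in the line where they were higher.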

How the data were processed

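RNA of 14 tumorsphere samples had been poly(A)-selected and sequenced by the authors with a NEBNext Ultra kit. The submitters' processing notes name CASAVA 1.8, STAR 2.5, DESeq2 and mm10, whereas the study's methods name TopHat2. The authors deposited 1 table of FPKM values per gene and sample, used here as deposited. Multiplying by gene length gave whole fragments for 100% of values (tolerance 0.01), which gave the depth. Samples were grouped by their labels, and the study's methods describe the KMF samples as independent and taken at various passages. For the other lines they say only that samples were replicates, so p-values there may measure technical spread only. Where the study describes a further FAK-R454 sample, it was not analysed here.

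Pairs of lines were compared with limma 3.58.1 in R 4.3.3 (trend, empirical Bayes) on log2(FPKM + 0.1), which understates changes of low genes, over genes with a mean above 1 FPKM in at least 1 line. P-values were adjusted over all genes tested (Benjamini-Hochberg, two-sided). A call needed an adjusted p under 0.05, a 2-fold difference and more than 1 FPKM in the higher line. The fits were also run on simulated data, but the outcome is not given here. Ratios from fragments are scaled to library depth. Their intervals are exact binomial and cover counting error only. All 10 members are named, and from each other list up to 4 genes per comparison with the largest change, of which the text gives those it needs. The members and lists were chosen with earlier results of these data known. The alternatives were other pseudocounts, filters and scaling, 1 fit of all 5 lines, the sample number as a block, limma-voom, centred chromosomes and each sample left out. Of the 8 comparisons, 2 were added after the levels had been seen. Promoter sequences are from RefSeq (GRCm38.p6).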

Additional observations from a re-analysis of the deposited data

Results flagged for a closer look

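Axin2 and Notum differed between the knockout clone with wildtype and with kinase-inactive FAK, by limma's direct test of FAK-WT against FAK-R454 cells. Kinase activity cannot be told apart here from other differences between these lines, such as Ptk2 RNA (43.4 and 62.4 FPKM on average). For Axin2 the difference was 1.30 on the log2 scale (adjusted p = 0.00584), and all 3 FAK-WT samples were above both FAK-R454 samples. For Notum it was 0.96 (adjusted p = 0.0337), again with all 3 above both. Both genes were tested only because of their FAK-WT level, being below 1 FPKM in FAK-R454 cells. Notum did not pass without the FPKM filter (adjusted p = 0.0685), without FAK-WT sample 1 (0.0903) or without FAK-WT sample 2 (0.108), from limma. With 1 FAK-R454 sample left out neither difference passed, though the values stayed at 1.28 and 1.32 for Axin2 and 0.95 and 0.98 for Notum. FAK-WT cells alone then give the spread, and 4 of all genes tested were called higher, against 82 with both samples. Lines of 3 or fewer samples were not tested for outlying samples. Samples of a line were compared in pairs by a mean chi-square per gene. FAK-WT sample 3 stood apart, at 42.5 and 30.5 against samples 1 and 2, which gave 3.15 together. KMF sample 3 was at 23.8 and 29.0, beside 4.59 between samples 1 and 2. Pairs of FAK KO samples gave 8.17 to 22.2, and pairs of β-catenin ΔGSK samples 8.75 to 30.4. The cause was not tested. Calls that turned on FAK-WT sample 3 are given above.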

How the results depend on the processing

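The members called in β-catenin ΔGSK over FAK KO (9), FAK-WT (8) and KMF cells (8) kept the same count under every alternative run except that any-fold calling gave 9 over FAK-WT and KMF. Leaving out 1 sample at a time gave from 0 to 2 members called higher in FAK-WT over FAK-R454, 1 to 2 in KMF over FAK KO and 1 to 2 in KMF over FAK-WT cells, and from 0 to 1 called lower between FAK-R454 and FAK KO cells. A pseudocount of 1 left 0 called higher in FAK-WT over FAK KO cells, 0 in FAK-WT over FAK-R454 cells and 1 in KMF over FAK-WT cells. Calling at any fold gave 1 higher and 1 lower between FAK-R454 and FAK KO cells, 4 higher in KMF over FAK KO cells, 2 higher in FAK-WT over FAK-R454 cells, and 4 higher and 1 lower in KMF over FAK-WT cells. A pseudocount of 0.01, limma-voom and centred chromosomes each gave 2 members higher in FAK-WT over FAK-R454 cells and 1 lower when FAK-R454 was set against FAK KO cells. Median-of-ratios scaling gave 2 higher in FAK-WT over FAK-R454 cells and 1 in KMF over FAK-WT cells. The cause was not tested.

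Centring each chromosome reversed 3 differences that had not passed: Apcdd1 in KMF over FAK KO cells went to 0.28, Apcdd1 in FAK-WT over FAK-R454 cells went to 0.022, and Znrf3 in FAK-WT over FAK-R454 cells went to 0.0059. Lgr5 in FAK-R454 over FAK KO cells, 0.04 without the filter, went to -0.026 with the replicate block (equal to leaving out FAK KO sample 3) and ran from -0.032 to 0.12 with 1 sample left out. Median-of-ratios scaling moved the median of all genes in β-catenin ΔGSK over FAK KO cells from -0.09 to 0.02, and the genes called from 611 higher and 833 lower to 735 and 702. Centring gave 712 and 717.

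The labels give same-numbered samples only a common number and do not say whether they were paired. The correlation of their deviations was 0.45, 0.28 and 0.08 in β-catenin ΔGSK and FAK KO cells and was over 0.1 for every pair in no comparison. These values cannot settle whether some of the samples were paired. FAK-R454 has no sample 3, so in its comparisons the replicate block takes no difference from sample 3 of the other line, and its fold changes equal those without that sample. With the replicate block, 2 members were called higher in FAK-WT over FAK-R454 cells, Rnf43 (0.74), Tcf7 (0.32) and Apcdd1 (-0.14) passed there, and Lgr5 (0.74) and Nkd1 (0.89) without the filter no longer passed in FAK-WT over FAK KO cells.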
